A study of Mus musculus with 6 samples.

Results

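The regions described here are stretches of open chromatin that lay away from gene starts and carried a peak in every one of the 6 palate libraries. The assay was ATAC-seq: the transposase Tn5 cuts accessible DNA and leaves sequencing adapters behind. The libraries came from palatal shelves of C57BL/6 mouse embryos at E14.5, with 3 libraries of epithelium peeled off after trypsin treatment and 3 of the tissue that remained, labelled mesenchyme and described by the submitters as mainly mesenchymal. Both tissues were wild type and untreated, and each library held about 20000 cells. The sources disagree on the input of a replicate. The design text gives 3 embryos, the treatment protocol 5 shelves, and the methods 7 embryos for both tissues together. Per the methods the mesenchyme was what remained of the peeled shelves, so the tissues shared embryos. Which epithelium library shares embryos with which mesenchyme library is not stated. Because the peeling separates tissues and not single cell types, fewer open cells and less opening per cell cannot be told apart in any value below.

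The regions were chosen by their peaks. Peaks of the 6 lists that shared at least 1 bp were merged, and a merged region was kept when all 6 libraries had a peak in it and it lay more than 1 kb from every start of a protein-coding transcript. This left 47864 of 707876 merged regions (6.76%), or 73.0% of the 65554 regions with a peak in all 6 libraries. The other 17690 of those overlapped or neighboured a protein-coding start and are called start-site regions. A further 267381 distal regions had a peak in 2 to 5 libraries and 357334 in a single library. Presence of a peak in every library is what selected the regions and is not a result.

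Open chromatin away from gene starts usually marks enhancers, which bind transcription factors and act on a promoter at a distance, or sites of CTCF, the zinc-finger protein that anchors chromatin loops and insulates domains. Enhancers tend to differ between cell types, whereas promoters and CTCF sites are largely shared. In the palate the epithelium covers shelves of neural crest-derived mesenchyme, and both tissues exchange signals such as Shh, Fgf and Bmp while the shelves grow and fuse.

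Sequence from the bases that all 6 libraries covered shows what such a region looks like. The first set holds the 3 regions with a CTCF match whose narrowest library still had the widest peak, chosen after their values were seen. All sequences are the plus strand of the RefSeq GRCm38.p6 assembly, and here the capitals mark the CTCF match.
chr5:111269727-111269926, intron of Ttc28: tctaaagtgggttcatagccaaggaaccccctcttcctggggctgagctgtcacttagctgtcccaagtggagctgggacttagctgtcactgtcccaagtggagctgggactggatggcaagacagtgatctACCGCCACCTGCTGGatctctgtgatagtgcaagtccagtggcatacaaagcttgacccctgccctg
chr5:123149835-123150034, exon of a non-coding transcript near Setd1b: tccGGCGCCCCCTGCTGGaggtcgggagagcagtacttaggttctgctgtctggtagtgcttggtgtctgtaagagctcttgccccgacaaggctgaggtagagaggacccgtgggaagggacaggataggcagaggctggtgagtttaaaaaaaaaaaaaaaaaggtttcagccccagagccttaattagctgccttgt
chr11:77508105-77508304, at Git1 and Trp53i13: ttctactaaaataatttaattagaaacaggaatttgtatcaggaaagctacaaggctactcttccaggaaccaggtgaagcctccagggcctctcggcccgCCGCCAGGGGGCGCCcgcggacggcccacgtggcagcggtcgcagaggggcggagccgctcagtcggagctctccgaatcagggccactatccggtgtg

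The second set holds regions that overlap enhancers that drove a reporter in facial mesenchyme of mouse embryos according to the VISTA entries of the RefSeq annotation, also chosen after their values were seen. Capitals mark any match to 1 of the 18 motifs searched, on either strand, which in the first of them were TFAP2 (GCCNNNGGC) and MEIS (TGACAG, here on the minus strand) and in the third an E-box (CAGCTG). In a 200 bp window TFAP2 matched in 11.0%, MEIS in 16.4% and the E-box in 17.4% of the distal 6-library regions, against 7.05%, 15.9% and 14.4% of distal regions of 2 to 5 libraries. The window lay on bases covered in all 6 libraries where there were any, and otherwise on the midpoint. These shares thus compare windows placed differently.
chr5:37826753-37826919, VISTA mm426 upstream of Msx1: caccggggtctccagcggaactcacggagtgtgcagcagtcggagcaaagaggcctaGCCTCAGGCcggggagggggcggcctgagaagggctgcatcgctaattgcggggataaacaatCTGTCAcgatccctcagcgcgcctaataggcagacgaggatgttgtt
chr5:37918439-37918638, VISTA mm428, farther from Msx1: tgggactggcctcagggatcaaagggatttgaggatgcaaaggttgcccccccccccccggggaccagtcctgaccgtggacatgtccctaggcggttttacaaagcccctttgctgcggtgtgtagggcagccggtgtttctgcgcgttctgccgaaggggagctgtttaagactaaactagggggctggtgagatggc
chr3:122048075-122048274, VISTA mm435 in Abca4: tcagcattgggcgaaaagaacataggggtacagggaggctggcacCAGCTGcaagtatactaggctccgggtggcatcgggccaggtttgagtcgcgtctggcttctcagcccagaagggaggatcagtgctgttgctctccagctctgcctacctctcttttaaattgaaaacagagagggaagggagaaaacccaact

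The third set holds regions with the smallest p-values for a width difference between the tissues, none of which passed the threshold, again with motif matches in capitals. Of the 8 such regions 3 had no base covered in all 6 libraries, so 5 are shown.
chr3:138875247-138875285, intron of Tspan5, wider in epithelium: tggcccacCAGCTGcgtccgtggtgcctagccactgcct
chr3:9500782-9500981, intron of Zfp704, wider in epithelium: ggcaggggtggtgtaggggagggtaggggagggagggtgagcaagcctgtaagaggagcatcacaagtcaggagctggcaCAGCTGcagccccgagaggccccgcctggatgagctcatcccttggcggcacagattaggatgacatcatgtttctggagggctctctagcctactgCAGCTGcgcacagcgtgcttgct
chr9:58113516-58113715, in Ccdc33 and Stra6, wider in epithelium: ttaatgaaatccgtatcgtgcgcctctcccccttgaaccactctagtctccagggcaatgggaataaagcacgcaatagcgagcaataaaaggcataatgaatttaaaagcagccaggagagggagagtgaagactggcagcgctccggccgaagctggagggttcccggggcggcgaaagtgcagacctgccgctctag
chr2:170114164-170114252, coding exon of Zfp217, wider in mesenchyme: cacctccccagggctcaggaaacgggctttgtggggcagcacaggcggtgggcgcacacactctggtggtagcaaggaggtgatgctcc
chr11:119810018-119810096, intron of Rptor, wider in mesenchyme: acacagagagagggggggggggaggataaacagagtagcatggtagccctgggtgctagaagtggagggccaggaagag

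The 6 lists held 270003, 349322 and 296695 peaks in epithelium and 295141, 341741 and 315468 in mesenchyme. Read depth is unknown, because the lists carry positions only, and their length is the nearest stand-in. At protein-coding starts of 10 epithelial marker genes, all 10 had a peak in each epithelium library and 8 in each mesenchyme library. Trp63, the master regulator of stratified epithelium, had a start-site peak in 3 epithelium and 0 mesenchyme libraries. Of 10 mesenchyme markers, 9 to 10 had a start-site peak in every library of either tissue, so these start sites did not separate the tissues. Start-site peaks of other cell types were found in both tissues, with 2 to 3 of 4 endothelial genes, 2 to 3 of 4 immune genes, 3 to 4 of 4 muscle genes, 3 of 4 nerve and glia genes and 0 to 1 of 4 erythroid genes per library, and the part of such cells in the results was not tested.

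Merging chained neighbouring peaks together, so a peak in every library did not always mean a shared base. In 34097 of the 47864 regions (71.2%) some bases were covered in all 6 libraries, with a median of 272 bp, whereas 13767 regions had no base in common. Among start-site regions the share with common bases was 93.9%, with a median of 942 bp. The merged width of the distal regions had a median of 1366 bp and ran between 200 and 144405 bp, and 1320 of them (2.76%) were longer than 5 kb. Only 15713 (32.8%) consisted of exactly 1 peak in each library. The regions also lay close together, since 33489 (70.0%) had another within 10 kb, and 2043 runs held at least 5 regions each within 10 kb of the next. The longest such run, chosen after its values were seen, held 77 regions between 6354617 and 6709700 on chromosome 17, across Sytl3, the dynein light chain genes Dynlt1b, Dynlt1c and Dynlt1f and pseudogene copies of Tmem181.

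At the edges of the rule the values changed little at the 1 kb limit and more at the number of libraries. The 209 members lying up to 100 bp outside the 1 kb limit covered a median of 701, 821 and 740 bp in the epithelium libraries and 895, 898 and 921 bp in the mesenchyme libraries. The 218 6-library regions up to 100 bp inside it, which were not kept, covered 666.5, 911.5 and 760 bp in epithelium and 776.5, 870 and 941 bp in mesenchyme. The 33163 distal regions with a peak in 5 libraries covered a median of 364, 434 and 395 bp in epithelium and 404, 436 and 436 bp in mesenchyme where a peak was present. The merging ties width to the number of libraries, so this last difference describes the rule and is not a result.

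Most of the regions lay in introns or between genes. By the midpoint, 21019 (43.9%) fell in an intron of a protein-coding gene, 17794 (37.2%) between genes, 3891 (8.13%) in a non-coding gene, 3085 (6.44%) in a coding exon, 1294 (2.70%) in a UTR and 781 (1.63%) in another exon. Taking any overlap with an annotated exon in place of the midpoint, 16132 regions (33.7%) touched one. The median distance to the nearest protein-coding start was 20170 bp, against 29500 bp for distal regions of 2 to 5 libraries. Within 5 kb of a start lay 17.3% of the regions, 55.8% lay at 5 to 50 kb, 12.9% at 50 to 100 kb, 12.8% at 100 to 500 kb and 1.25% beyond 500 kb.

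**Figure D1:**
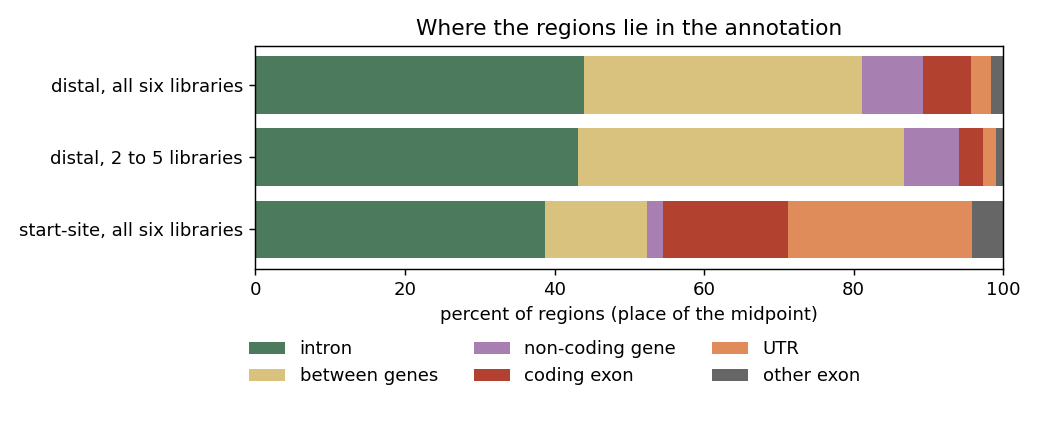
Horizontal bars give the percent of regions by the annotation at their midpoint, for distal regions open in all 6 libraries, distal regions of 2 to 5 libraries and start-site regions open in all 6. Introns take 43.9% and the space between genes 37.2% of the distal 6-library regions, against 43.1% and 43.6% of distal regions of 2 to 5 libraries.

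Some distal regions sat at starts that the rule did not consider. Within 1 kb of the start of a transcript without protein-coding annotation lay 7339 of them (15.3%), against 7.10% of distal regions of 2 to 5 libraries. These starts belonged to non-coding transcripts of coding genes for 3626 regions, long non-coding RNAs for 1998, pseudogenes for 1086 and small RNAs for 808, with some regions near more than 1 kind. Of the 403 tRNA genes that RefSeq annotates, 145 touched a distal 6-library region and 55 a start-site region. Among 1005 miRNA hairpins in the RefSeq table, 211 touched a distal 6-library region, 180 a start-site region and 162 a distal region of 2 to 5 libraries.

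The miRNAs named here were picked after their values were seen. The region over Mir200b, a member of the family that holds cells in an epithelial state, covered 772, 576 and 421 bp in the epithelium libraries and 684, 595 and 511 bp in the mesenchyme libraries, so the tissues overlapped. The region over Mir199b, which lies in an intron of Dnm1, covered 5924, 7038 and 7258 bp in epithelium and 6993, 8534 and 8661 bp in mesenchyme, again with overlap. At Mir199a-2 the values were 541, 1385 and 1230 bp in epithelium and 1467, 1290 and 1454 bp in mesenchyme.

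Peaks in the distal 6-library regions differed in base composition and motifs from peaks of other distal regions in the same libraries. In each library the share was taken over its own peaks, using the central 200 bp of a peak, and the 6 within-library differences were tested with an exact sign-flip test, two-sided, whose smallest p is 0.031. Since every library has a peak in the same regions, the 6 values are repeated readings of 1 set of loci, and the p measures only their agreement. GC content was 55.1% ± 0.0958 (SD, n = 6 libraries) in peaks of the distal 6-library regions and 51.4% ± 0.431 in other distal peaks, higher in 6 of 6 libraries (exact sign-flip p = 0.031, adjusted p = 0.0375 over 24 measures). Soft-masked repeat bases took 17.9% and 29.2%, lower in 6 of 6 libraries with the same exact p = 0.031. By place, peaks of the distal 6-library regions lay more often in exons (12.5%, against 5.68%) and introns (45.8%, against 42.8%) and less often between genes (34.2%, against 44.2%), each in 6 of 6 libraries at the same exact p = 0.031.

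CTCF matches were more frequent in these regions than in other distal peaks or at start sites. Of the peaks in distal 6-library regions 0.822% ± 0.0752 held a match to the CTCF consensus in either orientation, against 0.256% ± 0.0595 of other distal peaks and 0.287% ± 0.0348 of start-site peaks (SD, n = 6 libraries, higher in 6 of 6 libraries in both comparisons, exact sign-flip p = 0.031, adjusted p = 0.0375 over 24 measures and 0.034 over 25). Counted once per region in a 200 bp window, 737 of 47864 distal 6-library regions (1.54%) held a match, against 0.262% of distal regions of 2 to 5 libraries and 0.413% of start-site regions. Among regions with bases covered in all 6 libraries the share was 2.08% (710 regions), and among those without it was 0.196% (27 regions). The window was centred on the common bases in the former and on the midpoint in the latter. It was also on the midpoint in every distal region of 2 to 5 libraries, where the share was 0.262%. The per-region shares, with or without mismatches, thus compare windows placed differently. The strict consensus misses many sites. With 1 mismatch allowed, an alternative added after the data were seen, the shares were 5.17% of distal 6-library regions, 1.29% of distal regions of 2 to 5 libraries and 2.34% of start-site regions. With 2 mismatches they were 13.5%, 6.27% and 14.9%, so the start-site regions then had the higher share.

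Other motifs, each searched on both strands, split by class. YY1, a zinc-finger factor that binds promoters and enhancers, had its match AANATGGCG in 1.76% of peaks in distal 6-library regions, 1.11% of other distal peaks and 1.38% of start-site peaks. The GC-rich KLF/SP match GGGCGGGG was found in 2.81% of peaks in distal 6-library regions, against 1.44% of other distal peaks and 9.24% of start-site peaks. TFAP2, a family needed in oral ectoderm and neural crest, had its match GCCNNNGGC in 10.3%, against 6.66% of other distal peaks and 16.4% of start-site peaks. In contrast, the AP-1 match TGANTCA was slightly rarer in peaks of distal 6-library regions (5.88%) than in other distal peaks (6.48%), and so were the homeobox match TAATTA (1.68%, against 2.27%), the SOX match ACAATGG (2.30%, against 2.75%) and the GRHL match AACCNGTT (1.33%, against 1.53%). Each of these differences from other distal peaks had 1 sign in all 6 libraries (exact sign-flip p = 0.031). The means hide a difference between the tissues in these contrasts with other distal peaks. For GRHL the difference was −0.499, −0.317 and −0.301 percentage points in the epithelium libraries and −0.037, −0.026 and −0.011 in the mesenchyme libraries. For SOX it was −0.821, −0.688 and −0.638 in epithelium and −0.127, −0.221 and −0.185 in mesenchyme, and for AP-1 −1.118, −0.945 and −0.573 in epithelium and −0.519, −0.131 and −0.314 in mesenchyme. The tissues did not overlap in any of the 3. For the RUNX match TGTGGT the order was the opposite, with −0.46 to −0.36 in epithelium and −1.51 to −1.11 in mesenchyme. These contrasts between tissues lay mostly in the other distal peaks. GRHL matched there in 1.85%, 1.68% and 1.62% in epithelium and 1.35%, 1.36% and 1.34% in mesenchyme. In peaks of distal 6-library regions it matched in 1.35%, 1.36% and 1.32% in epithelium and 1.31%, 1.34% and 1.33% in mesenchyme. In those peaks the tissues overlapped for GRHL and SOX but not for AP-1 and RUNX. The contrasts were noticed after the values were seen and were not tested. The AP-1 direction was not the same in every count. In a 200 bp window per region AP-1 matched in 6.31% of all distal 6-library regions, against 6.48% of distal regions of 2 to 5 libraries. The share was 6.83% in 6-library regions with bases covered in all 6 libraries and 5.03% in the rest. The window lay on the common bases in the former and on the midpoint in the rest and in regions of 2 to 5 libraries. Choice of regions and placement of the window cannot be told apart here. The NF1 match TTGGCA (11.0%, against 11.3%) and the CREB match TGACGTCA (0.246%, against 0.270%) did not pass, with 1 library of opposite sign and exact p = 0.0625. A motif match describes letters and not binding.

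**Figure D2:**
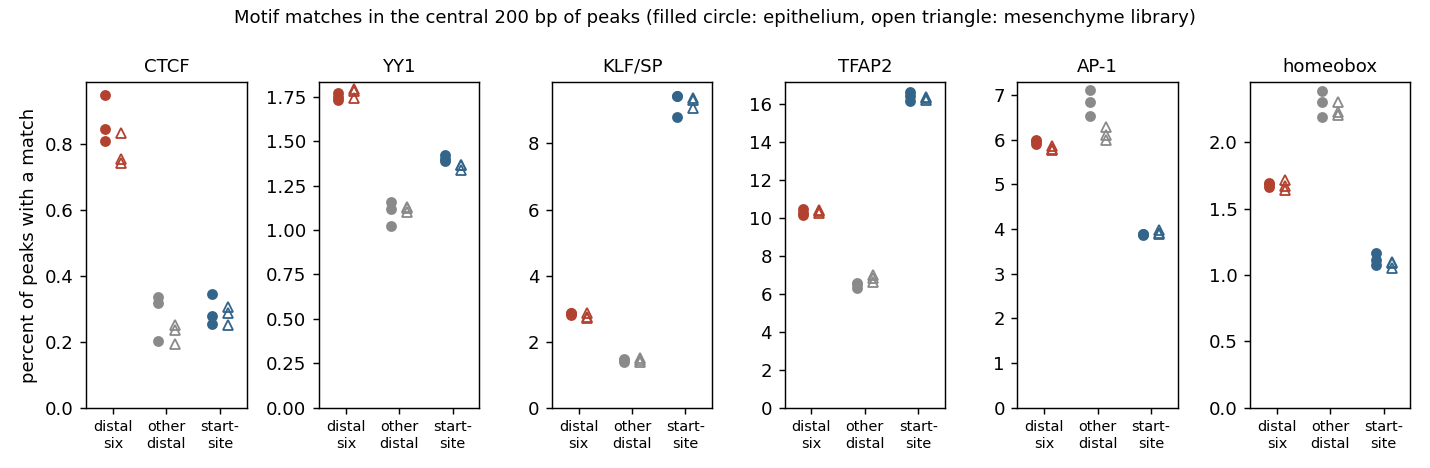
Each panel gives the percent of a library's peaks with a motif match in the central 200 bp, for peaks in distal 6-library regions, other distal peaks and start-site peaks, with epithelium libraries as filled circles and mesenchyme libraries as open triangles. CTCF and YY1 are highest in distal 6-library regions, KLF/SP and TFAP2 lie between the other classes, and AP-1 and homeobox matches are most frequent in other distal peaks.

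Known enhancers were set against these regions by overlap, with no background of other sequences of the same length, so enrichment was not tested. Of the 620 mouse enhancers from VISTA in the RefSeq annotation, 297 (47.9%) overlapped a distal 6-library region and 16 a start-site region, while 189 overlapped only regions of fewer libraries and 123 none found in at least 2 libraries. Among the 70 with reporter activity in facial mesenchyme, 43 (61.4%) overlapped a distal 6-library region. The share was 62.0% of 50 for nose, 59.2% of 98 for branchial arch, 53.4% of 174 for limb, 44.9% of 167 for forebrain and 42.8% of 159 for heart. Tissues outside the face also had high shares, with 69.6% of 23 for trigeminal ganglion, 62.5% of 32 for somite, 57.1% of 21 for cranial nerve, 55.2% of 29 for dorsal root ganglion and 54.3% of 140 for hindbrain. An enhancer can be listed for several tissues, so these groups overlap, and they are given as a description without a test.

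The enhancers around Msx1, a homeobox factor of palate mesenchyme whose loss causes cleft palate in mice, show how such regions varied. VISTA mm426, active in facial mesenchyme in 8 of 9 reporter embryos, held 2 regions, and the one nearer to Msx1, 2304 bp from a start, covered 325, 532 and 342 bp in the epithelium libraries and 334, 324 and 398 bp in the mesenchyme libraries. These values overlapped. The other, 4564 bp from a start, covered 199, 340 and 567 bp in epithelium and 758, 450 and 913 bp in mesenchyme, also with overlap (log2 difference −0.90, limma adjusted p = 0.504). At mm428 (4 of 5 reporter embryos) the region covered 1128, 807 and 1494 bp in epithelium and 2806, 1712 and 2055 bp in mesenchyme, where all 3 mesenchyme libraries were wider (log2 difference −0.85, limma adjusted p = 0.366). The region at mm427 covered 701, 677 and 665 bp in epithelium and 557, 460 and 830 bp in mesenchyme. At mm435, which lies in Abca4 and was active in 14 of 14 reporter embryos, the epithelium libraries covered 2484, 3438 and 2716 bp and the mesenchyme libraries 1553, 1907 and 1863 bp, with no overlap (log2 difference 0.80, limma adjusted p = 0.135). The wider peaks lay in mesenchyme at mm428 and in epithelium at mm435, and neither difference passed the threshold.

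A subset of the regions lay in DNA present in many copies. Words of 31 bases that recur within the region made up the majority of its words in 1273 distal 6-library regions (2.66%), against 28 start-site regions (0.158%). Of the 5 regions with the longest run of bases covered in all 6 libraries, 4 were of this kind. The longest lay at 123535727 to 123624922 on chromosome 8, over the tandem array of 5S ribosomal RNA genes, with 95.6% of its words repeated, and covered 87982, 88928 and 88470 bp in the epithelium libraries and 88004, 88114 and 88900 bp in the mesenchyme libraries. A pair of regions on chromosome 6, near Ezh2 and Pdia4, had common runs of 40431 and 34079 bp, with 87.3% and 94.5% of words repeated. The region near Atg7, the longest of all at 144405 bp, had a common run of 19585 bp and 93.5% of words repeated. The fifth, in Sfi1 on chromosome 11, had a common run of 15023 bp and 0.331% of words repeated within itself. In all 5 the tissues covered nearly the same length. The mean at the 5S array was 88460 bp in epithelium and 88339 bp in mesenchyme, and near Atg7 it was 142409 bp in epithelium and 142993 bp in mesenchyme.

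Matches to the mitochondrial genome were found in 17 regions. Of 134 places in the nuclear genome that blastn matched to mitochondrial DNA, 15 held a distal 6-library region, and of the 28 places of at least 500 bp 8 did. The 17 were among 47864 distal 6-library regions. Such a match was also found in 4 of 17690 start-site regions and 4 of 267381 distal regions of 2 to 5 libraries. The largest, at 24611360 to 24616345 on chromosome 1, covered 4967, 4966 and 4982 bp in epithelium and 4969, 4969 and 4968 bp in mesenchyme, and its longest match ran over 4654 bp at 99.9% identity. Next came a region of 3563 bp in an intron on chromosome 2, whose match ran over 3260 bp at 97.4% identity. Per the methods, reads were aligned with Bowtie 2 at default settings, which place a read with several equal matches at 1 of them, and no filter on mapping quality is described. Duplicates were removed with SAMtools, and MACS2 was then told to keep whatever duplicates were left. The part of mitochondrial or multicopy reads in these peaks was not tested.

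Along the chromosomes the regions were densest on chromosome 11, with 31.5 per Mb, followed by chromosomes 4 (27.9) and 17 (27.7), and sparsest on chromosomes 3 (9.75), X (4.33) and Y (0.610). Protein-coding genes numbered 13.4 per Mb on chromosome 11 and 5.54 on X. The share of 6-library regions among distal regions found in 2 or more libraries ran between 11.1% on chromosome 3 and 18.98% on Y.

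Per library the distal regions were narrower than start-site regions. They covered a median of 621, 770.5 and 680.5 bp in the epithelium libraries and 711, 766 and 780 bp in the mesenchyme libraries. Start-site regions covered 1290, 1471 and 1326 bp in epithelium and 1363, 1390 and 1416 bp in mesenchyme. The log2 ratio of the medians, distal over start-site, averaged −0.93 and was negative in all 6 libraries (exact sign-flip p = 0.031). The 6 libraries read the same loci, so the p measures only their agreement. Distance was taken from the edges of the merged region, so a wider region more readily counts as start-site and width partly decides the class. Between the tissues the median of the distal regions was 690.7 ± 75.3 bp in epithelium and 752.3 ± 36.5 bp in mesenchyme (SD, n = 3 each), a difference of −61.7 bp that lay within the spread of the libraries (exact permutation p = 0.3, where 3 against 3 allows no less than 0.1). It was −26.8 bp without the first epithelium library and −102 bp without the second. The ratio of distal to start-site medians was 0.506 ± 0.0221 in epithelium and 0.541 ± 0.0169 in mesenchyme (exact permutation p = 0.2, n = 3 each). The shortest list, of the first epithelium library, also had the narrowest regions. Peaks in the distal 6-library regions made up 27.8%, 22.1% and 25.3% of all peaks in the epithelium libraries and 25.6%, 22.5% and 23.9% in the mesenchyme libraries, and they took 29.8% to 33.2% of the covered bases in every library.

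**Figure D3:**
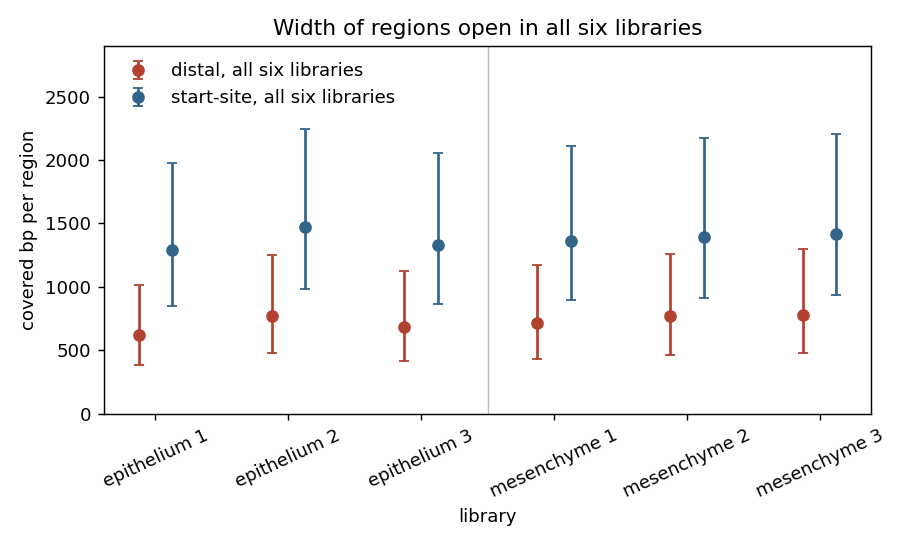
Points give the median covered bp per region in each library, with bars at the quartiles, for distal and start-site regions open in all 6 libraries. Distal medians run between 621 and 780 bp and start-site medians between 1290 and 1471 bp, and the epithelium and mesenchyme libraries overlap in both.

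Region by region, no width difference between the tissues passed the test. The log2 covered bp of all 65554 6-library regions, with each library centred on its median, were fitted with limma, a linear model with moderated variances, and adjusted by the Benjamini-Hochberg method. Of the distal regions 0 were called wider in epithelium and 0 wider in mesenchyme at an adjusted p under 0.05, as for all regions tested (0.0% in either direction). The smallest adjusted p was 0.12. Without adjustment 2947 distal regions (6.16%) had p under 0.05 for more width in epithelium and 3131 (6.54%) for more in mesenchyme, against 5.86% and 5.6% of all regions tested. The 3 epithelium libraries were all wider than the 3 mesenchyme libraries in 4230 distal regions (8.84%, against 9.93% of all regions tested), and all narrower in 3986 (8.33%, against 7.35%). The log2 differences had a median of −0.01, with quartiles of −0.34 and 0.30, and 92.6% lay within 1, beside a median standard error of 0.353. Centring adds 0.107 to every log2 difference, so a region of equal length in both tissues has a positive value of that size.

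The regions with the smallest p are given here as examples that did not pass the threshold. An intron of Tspan5, which encodes a tetraspanin, held a region of 1238, 1345 and 1092 bp in the epithelium libraries and 217, 199 and 213 bp in the mesenchyme libraries (log2 difference 2.65 ± 0.292 SE, limma adjusted p = 0.12). The region in Zfp704 covered 2392, 3056 and 2332 bp in epithelium and 798, 1109 and 979 bp in mesenchyme. In introns of the overlapping genes Ccdc33 and Stra6 (Stra6 is the cell-surface receptor for retinol-binding protein), 2972, 3213 and 2955 bp were covered in epithelium and 1397, 1555 and 1527 bp in mesenchyme. A region on chromosome 18, 222931 bp from the nearest coding start, covered 1652, 2368 and 1939 bp in epithelium and 361, 407 and 318 bp in mesenchyme. In these 4 regions every epithelium library exceeded every mesenchyme library, which a choice by smallest p favours.

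In the opposite direction, a coding exon of Zfp217, a zinc-finger repressor, held a region of 354, 525 and 408 bp in the epithelium libraries and 1822, 1902 and 2145 bp in the mesenchyme libraries (log2 difference −2.10 ± 0.233 SE, limma adjusted p = 0.12). A region in Rbfox3 covered 566, 626 and 415 bp in epithelium and 2291, 2683 and 2290 bp in mesenchyme. In an intron of Rptor, which encodes the mTORC1 subunit Raptor, 476, 666 and 564 bp were covered in epithelium and 2049, 1797 and 1990 bp in mesenchyme. The region in an intron of Dock9 covered 268, 199 and 207 bp in epithelium and 1126, 1568 and 2133 bp in mesenchyme. In these 4 every mesenchyme library exceeded every epithelium library, which the same choice favours. Among the 8 regions, 3 had no base covered in all 6 libraries, namely those on chromosome 18, in Rbfox3 and in Dock9.

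Widths shifted a little by chromosome. The median log2 width difference of the distal regions, epithelium minus mesenchyme, was 0.25 on X, the highest, and −0.15 on chromosome 11, the lowest, while the other chromosomes lay between −0.08 and 0.08. These medians are a description of the 6 libraries and carry no test.

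To ask which genes such regions surround, each region was given to the nearest protein-coding start on either side within 100 kb. By this rule 41109 regions (85.9%) reached at least 1 gene, 23785 of them 2 genes, and 14099 of 21829 protein-coding genes had at least 1. A gene had a median of 1 region and 383 genes had 20 or more. Long genes and genes with distant neighbours collect more regions under this rule.

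Rbfox3, a splicing factor known as the neuronal marker NeuN, had the most, with 83 regions, of which 70 lay inside the gene on chromosome 11 (118489762 to 118911597, minus strand). Together they covered 92522, 116196 and 109973 bp in the epithelium libraries and 119440, 155729 and 149315 bp in the mesenchyme libraries. Every mesenchyme library was above every epithelium library in these bp, which are not centred, as for the bp of each gene below. The centred mean log2 width difference was −0.29 ± 0.141 SE (limma adjusted p = 0.308). Without centring, 1080 of 7521 genes fitted had an unadjusted limma p under 0.05 for more width in mesenchyme. For more width in epithelium 211 did. How many genes separate in uncentred bp was not counted. In 33 of the 83 no base was shared by all 6 libraries. Gse1, a protein found in histone deacetylase complexes, followed with 64 regions, 53 of them inside the gene, and in 55 all 6 libraries had bases in common. Its regions covered 158923, 187286 and 171512 bp in epithelium and 196149, 209217 and 196560 bp in mesenchyme, again without overlap (mean log2 difference −0.18, limma adjusted p = 0.46). The same stretch had only 27 distal regions of 2 to 5 libraries, against 144 at Rbfox3.

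The next genes encode proteins of several kinds. Sept9, a septin of the cytoskeleton, had 59 regions. Sh3pxd2a, a scaffold of podosomes, had 54, and Casz1, a zinc-finger transcription factor, 51. Prex1, an exchange factor for Rac, had 48, Tspan9, a tetraspanin, 47, the homeobox factor Cux2 46 and the receptor tyrosine kinase Ephb2 46. Cmip had 45 and Lingo1, a membrane protein of the nervous system, 44. At Ephb2 the regions covered 52578, 58930 and 56073 bp in epithelium and 68304, 71121 and 77897 bp in mesenchyme, without overlap, whereas at Casz1 they covered 66270, 85846 and 80652 bp in epithelium and 77860, 86046 and 78622 bp in mesenchyme, with overlap. None of these 11 genes passed the limma test for a width difference between the tissues, with adjusted p between 0.296 and 0.85. Counting only regions with a base covered in all 6 libraries put Gse1 first with 55 and Rbfox3 next with 50.

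**Figure D4:**
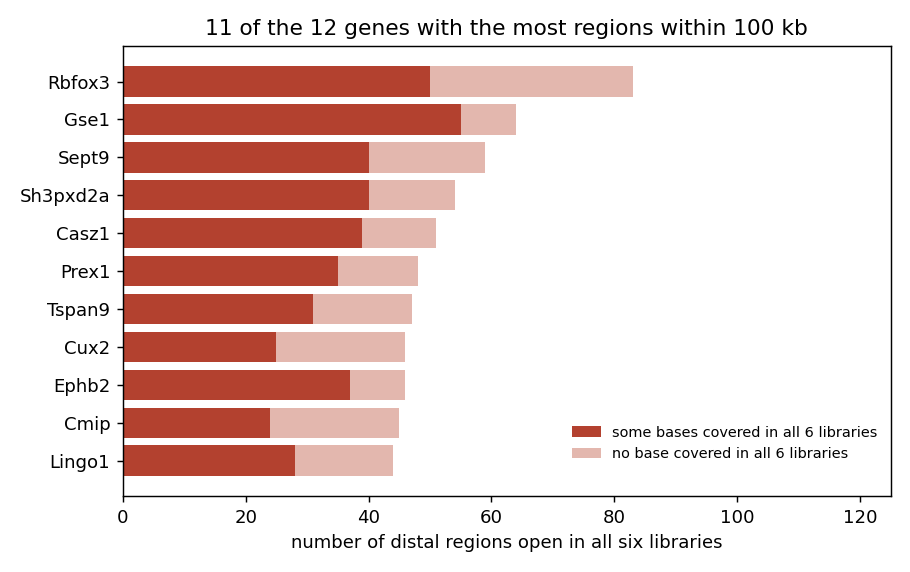
Horizontal bars give the number of distal regions open in all 6 libraries within 100 kb of the starts of 11 of the 12 genes with the most, split by whether some bases were covered in all 6 libraries (dark) or none were (light). Rbfox3 leads with 83, of which 50 share bases, and Gse1 follows with 64, of which 55 do.

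The gene lists, most of them relevant to the palate, all had distal regions of this kind. Palate signal genes had a median of 6.5 regions per gene (34 genes, 294 regions summed over genes), epithelial transcription factors 5.5 (16 genes), palate mesenchyme transcription factors 5 (23 genes), AP-1, Tead and nuclear factor I genes 5 (19 genes), keratins and junction genes 4 (23 genes), osteogenic genes 2.5 (10 genes), chromatin architecture and housekeeping genes 2 (19 genes) and mesenchyme matrix genes 1 (19 genes). Genes of other cell types had a median of 4.5 (20 genes). The median over all protein-coding genes was 1, below that of the housekeeping list and of other cell types too. Many of the listed genes are developmental genes that often have long flanks, which this count does not correct for.

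Among the signal genes, Wnt11, a non-canonical Wnt ligand, had 30 regions, Smad3, a transducer of Tgf-beta, 29, the hedgehog effector Gli2 22 and the ligand Bmp7 21. Of the epithelial factors, Grhl3, which is needed for periderm differentiation, had 23, followed by Pitx1 with 18, Tfap2c with 15 and Foxe1 with 12. Foxf1, a forkhead factor downstream of hedgehog signalling, led the mesenchyme factors with 24, ahead of Barx1 with 15 and of Prrx2 and Alx4 with 14 each. Among matrix genes Col5a1 had 35, Eln 24, Col6a2 17 and Col1a1 16. The junction and keratin list was led by Pkp1 with 22, and Krt8, Jup and Itgb4 had 12 each. Of the osteogenic genes Alpl had 15, Sost 11, Sp7 8 and Dlx6 3. In the list of AP-1, Tead and nuclear factor I genes Fos had 18, Tead1 and Nfix 16 and Fosl2 13. Actg1 had 12, Actb 11 and Gapdh and Rpl3 8 each among the housekeeping genes. Genes of cell types that these tissues hold in small part, or not at all, had them too, with 18 at Csf1r, 16 at Sox10 and 13 each at Cdh5 and Myog. These counts depend on the assignment. With the nearest start only, Pitx1 kept 18 regions and Grhl3 had 8, Tfap2c 9 and Foxe1 7, so Grhl3 no longer led the epithelial factors, and Pkp1 had 9, Alx4 5, Sox10 6, Myog 5 and Sost 2. With a 50 kb limit Grhl3 had 11, Pitx1 13, Tfap2c 4, Foxf1 13, Wnt11 18, Gli2 12, Pkp1 12, Actg1 5 and Sost 6. Under the same limit Rbfox3 had 55, Sept9 38, Sh3pxd2a 36, Col5a1 23 and Bmp7 13.

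Averaged per gene, no width difference passed the test. Over 7521 genes with at least 3 regions, limma called 0 wider in epithelium and 0 wider in mesenchyme (0.0% in either direction, smallest adjusted p 0.0747), while 519 (6.9%) and 781 (10.4%) had an unadjusted p under 0.05. The median log2 difference over all genes fitted was −0.04. For the 12 epithelial transcription factors fitted it was 0.30, with 4 at an unadjusted p under 0.05 and more width in epithelium and 0 in mesenchyme. For 13 keratin and junction genes it was 0.25, with 4 and 0. The 17 palate mesenchyme factors had a median of −0.14, with 0 and 3, the 7 matrix genes −0.22, with 0 and 2, and the 5 osteogenic genes −0.41, with 0 and 2. Lists that belong to neither tissue also had medians away from 0. The 11 genes of other cell types fitted had a median of −0.14, close to that of the palate mesenchyme factors, with 0 and 1, the 9 chromatin architecture and housekeeping genes −0.05, with 0 and 2, and the 17 AP-1, Tead and nuclear factor I genes 0.10, with 0 and 1. The 28 signal genes had a median of 0.08, with 4 and 0, which turned to −0.02 without centring of the libraries, as the AP-1, Tead and nuclear factor I list did to −0.01. Leaving out the centring moved the median of all genes fitted to −0.15. It shifts every gene by the same amount. The distance of a list from that median therefore cannot change (0.34 for epithelial factors and −0.37 for osteogenic genes in both) and says nothing of its stability. The other 7 lists kept their direction without centring, with centring in GC bins and with centring within chromosomes. These lists were drawn up with earlier results of the data known.

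**Figure D5:**
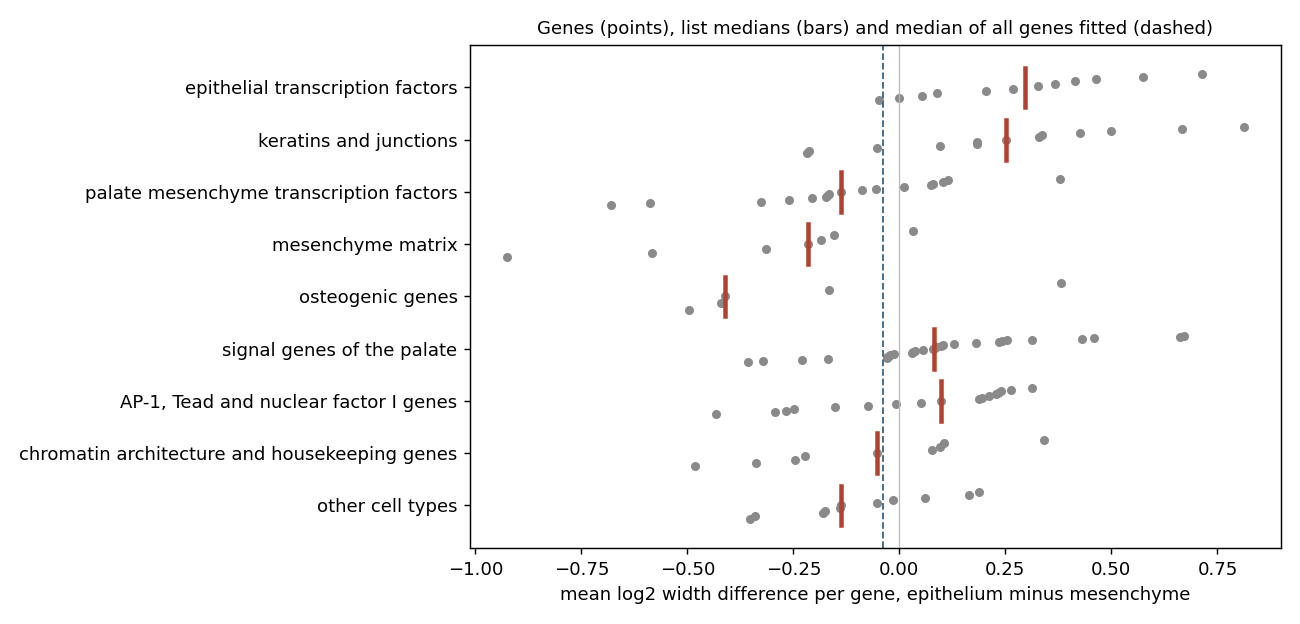
Each point is a gene with at least 3 distal regions open in all 6 libraries, placed by the mean log2 width difference of those regions, epithelium minus mesenchyme, with bars at list medians and a dashed line at the median of all 7521 genes fitted. Epithelial factors (median 0.30) and keratins and junctions (0.25) lie to the right, and osteogenic (−0.41) and matrix genes (−0.22) to the left, and no gene passed the adjusted threshold.

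The genes that follow were named after their values were seen, apart from Prrx2 and Col5a1, which the rule on region number names. The 5 regions of Krt5, the keratin of basal cells, covered 4761, 4845 and 5038 bp in the epithelium libraries and 2609, 3504 and 3165 bp in the mesenchyme libraries (mean log2 difference 0.81 ± 0.173 SE, limma adjusted p = 0.0792). All epithelium libraries were above all mesenchyme libraries in these uncentred bp. Other members of the keratin and junction list had the opposite sign, namely Itgb4 (−0.22), Cldn4 (−0.21) and Krt8 (−0.05). Among the epithelial factors Grhl3 did too (−0.05).

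On the mesenchyme side, the 3 regions of Col1a2, a chain of type I collagen, covered 1500, 1263 and 1318 bp in epithelium and 2484, 3473 and 2932 bp in mesenchyme (mean log2 difference −0.93 ± 0.19 SE, limma adjusted p = 0.0787). Prrx2, a homeobox factor of craniofacial mesenchyme, had 14 regions with 11936, 14931 and 14868 bp in epithelium and 21098, 22505 and 21911 bp in mesenchyme (limma adjusted p = 0.0883). The 35 regions of Col5a1 covered 27791, 31444 and 32011 bp in epithelium and 43308, 50177 and 54579 bp in mesenchyme (limma adjusted p = 0.121). The groups did not overlap at any of the 3 in uncentred bp, and how many genes separate in this way was not counted. Other genes of the same lists had the opposite sign, among them Msx2 (0.38), Barx1 (0.10), Osr2 (0.07) and Col6a2 (0.03). None of these differences passed the threshold.

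By smallest p, the genes with regions wider in epithelium were Map3k20, Spin2e, Atg10 and Reps1 (mean log2 differences between 0.97 and 1.14, limma adjusted p = 0.0747), each with 3 or 4 regions. Those wider in mesenchyme were Homer3, Lsp1 and Engase, with 3 regions each, and Rptor with 19 (between −0.74 and −0.89, limma adjusted p = 0.0787). At Rptor the regions covered 14957, 22476 and 20352 bp in epithelium and 32578, 31412 and 33182 bp in mesenchyme. When only the 4530 genes with at least 5 regions were fitted, 11 passed as wider in epithelium, Krt5 among them, and 32 as wider in mesenchyme, including Prrx2, the nerve growth factor receptor gene Ngfr with 25 regions and Snai1, a repressor of epithelial genes, with 23. Of the 32, 17 lay on chromosome 11, and of the 11, 2 on X. Chromosome 11 held 1636 of the 21829 protein-coding genes and 3848 of the 47864 distal regions, and X held 948 and 741. Their shares of the 4530 genes fitted were not counted. Ube3b and Mmab, and likewise Stard3 and Tcap, were assigned the same regions and are counted as separate genes. In alternatives added after the data were seen, no gene passed when libraries were centred within each chromosome (smallest limma adjusted p 0.0731) or within bins of GC content (0.0514), while the differences stayed of similar size for most of these genes. The median log2 difference of the 11 was 0.84, against 0.83 within chromosomes and 0.77 within GC bins, and that of the 32 was −0.68, against −0.60 and −0.64. At Krt5 it was 0.81, 0.87 and 0.82, and the 2 genes on X, Btbd35f25 and Btbd35f6, had 0.84 and 0.73, against 0.55 and 0.44 within chromosomes.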

How the data were processed

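Peaks of 6 ATAC-seq libraries were analysed, 3 of palatal epithelium and 3 of palatal mesenchyme. The deposited lists hold peak coordinates on mm10 with no score, count or depth. The tools the submitters list are Trimmomatic 0.38, Bowtie2, SAMtools, deepTools 2.0 and MACS2 2.1.1, and the authors called peaks per library from fragments under 100 bp. No source used here gives the calling threshold. Without depth, a wider peak and a more deeply sequenced library cannot be told apart, so each library was centred on its median log2 width. Regions were placed with GENCODE M21, and sequence came from RefSeq GRCm38.p6. Covered bp per region or gene was fitted with limma 3.58.1 in R 4.3.3 with a mean trend and Benjamini-Hochberg adjustment at 0.05. A test on simulated data came first, with differences larger than nearly all of those observed. It therefore does not measure the power for differences of the observed size. Other comparisons used exact permutation or sign-flip tests, two-sided. Python 3.11.15, numpy 2.4.6, pandas 2.3.3 and BLAST 2.17.0 (e-value 1e-10) were also used. Nothing in the sources says whether libraries came from separate litters, so p-values measure only the spread between libraries. The main tests between the tissues treated the libraries as unpaired, because no pairing is given.

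Named genes were the 12 with the most regions, up to 4 per gene list with the most, and 4 per direction by smallest p. Named regions were the 5 with the longest common run and 4 per direction by smallest p. A few genes that the rule or lists hold are not reported here. Members, lists and tests were chosen with earlier results of these data known. Same-numbered libraries did not deviate together (correlations between −0.004 and 0.011).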

Additional observations from a re-analysis of the deposited data

How the results depend on the processing

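Requiring peaks of at least 300 bp left 29092 distal 6-library regions in place of 47864, and a peak in all of any 5 libraries gave 52027 to 57180. No region was called wider in either tissue under any alternative tried, the replicate block included (0 regions and 0 genes, with 2819 and 3184 distal regions at an unadjusted p under 0.05). Without centring, the unadjusted counts were 2032 wider in epithelium and 4184 wider in mesenchyme, against 2947 and 3131 with it. Genes called wider in epithelium numbered 2 with a 50 kb limit, 11 with at least 5 regions per gene and 0 to 1 when 1 library was left out (1 without mesenchyme replicate 2), against 0. Genes called wider in mesenchyme numbered 32 with at least 5 regions, against 0. Without 1 library, 6 sign flips become 5, which cannot go below 0.0625, and the differences of distal 6-library regions from start-site regions ran between −0.95 and −0.91 for the log2 ratio of widths, −4.90 and −4.86 for GC percent and 0.521 and 0.551 for CTCF percent. Against other distal peaks they ran between 3.52 and 3.76 for GC, 0.557 and 0.576 for CTCF, 2.80 and 3.24 for introns, 6.71 and 7.02 for exons and −10.3 and −9.77 between genes. The median width difference between the tissues ran between −102 and −26.8 bp, and that of the ratio between −0.04 and −0.02. Counts per named gene moved for 15 of 48 genes at 50 kb, 19 with the nearest start only and 15 with regions sharing a base. The missing read depth and peak scores limit every width given.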

Other observations

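The REST consensus, bound by a repressor of neuronal genes, matched in 34 distal 6-library regions (0.071%), against 0.0735% of start-site regions and 0.0131% of distal regions of 2 to 5 libraries. In the latter the window lay on the midpoint. Distal 6-library regions without a common base, which also used the midpoint, had a match in 0.0145%. The region over Mirlet7b covered 4347, 4674 and 3628 bp in the epithelium libraries and 6187, 5194 and 5750 bp in the mesenchyme libraries. These uncentred values did not overlap, and the region was picked after they were seen.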
